A study of Mus musculus with 6 samples.

Results

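The genes described here are 10 regulators of the integrated stress response: the transcription factor genes Atf4, Atf5, Atf3, Ddit3, Cebpb and Cebpg, the pseudokinase gene Trib3, the chromatin-associated stress protein gene Nupr1, the phosphatase subunit gene Ppp1r15a and the sensor kinase gene Eif2ak4. They were chosen by name as components of this pathway, with earlier results of these data known. All 10 were found among the 22180 genes measured, each by 1 probe set that carried no other gene's symbol. RNA was measured on 6 Affymetrix Mouse Gene 2.0 ST arrays, 3 for icilin-treated CD4+ T cells and 3 for cells given its solvent, dimethyl sulfoxide (DMSO). The cells came from the spleens of wild-type C57BL/6 female mice about 8 weeks old, and each group drew on the same 3 animals. All cells had first been stimulated for 24 h with antibodies to CD3 and CD28, each at 10 µg/mL, and were then kept for 24 h with 100 µM icilin or the matching amount of DMSO. Icilin is a synthetic cooling agent and an agonist of the ion channels TRPM8 and TRPA1. Both groups were grown in the same medium, which held 2 mM L-glutamine, nonessential amino acids and 500 µM 2-ME. The cells were purified but no purity was given in the sources used here, there was 1 dose and 1 time, and each array holds a whole cell population.

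In the integrated stress response, kinases that sense different kinds of stress phosphorylate the translation initiation factor eIF2. General protein synthesis then falls, while the mRNA of ATF4 is translated more efficiently because short upstream reading frames in its leader are bypassed. ATF4, a basic leucine zipper (bZIP) factor, pairs with C/EBP proteins at composite elements and switches on genes for amino acid supply, together with its own co-regulators and brakes. In activated T cells, which have a high demand for amino acids, the GCN2 kinase (the product of Eif2ak4) and ATF4 are known for sensing and answering shortage. Arrays measure RNA, so neither the phosphorylation of eIF2 nor the translation of ATF4 was measured.

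Of the 10 regulators, 5 rose with icilin, 0 fell and 5 did not pass the test. A gene counts as called where the change is at least 1.5-fold with a limma adjusted p under 0.1, the limits that the study's design text gives for its own test. Trib3 rose 2.00-fold, Cebpb 1.69-fold, Atf5 1.64-fold, Ddit3 1.56-fold and Nupr1 1.52-fold. Over all 22180 genes, 82 were called higher (0.370%) and 229 lower (1.03%). SAM, the method named by the study, also called 5 regulators higher and 0 lower, and the raw limma p was under 0.05 for 7 higher and 1 lower, beside 9.09% of all genes higher and 8.05% lower. Without the fold limit, Atf4 and Cebpg passed the adjusted p as well, which made 7 higher and 0 lower, where 2.27% of all genes were higher and 3.00% lower. The median log2 fold change of the 10 was 0.52, beside 0.01 over all genes. In 7 regulators every icilin array lay above every vehicle array, in 1 (Atf3) every icilin array lay below, and in Ppp1r15a and Eif2ak4 the groups overlapped. Such separation was seen in 13.6% of all genes upward and 10.5% downward. Each icilin array stood above the gene's own mean over the 6 arrays for 8 of the 10 regulators, and each vehicle array for 2 of them. For the 7 regulators separated upward, this count mostly restates that separation. In bulk samples such as these, fewer cells of a type and less RNA per cell cannot be told apart.

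**Figure D1:**
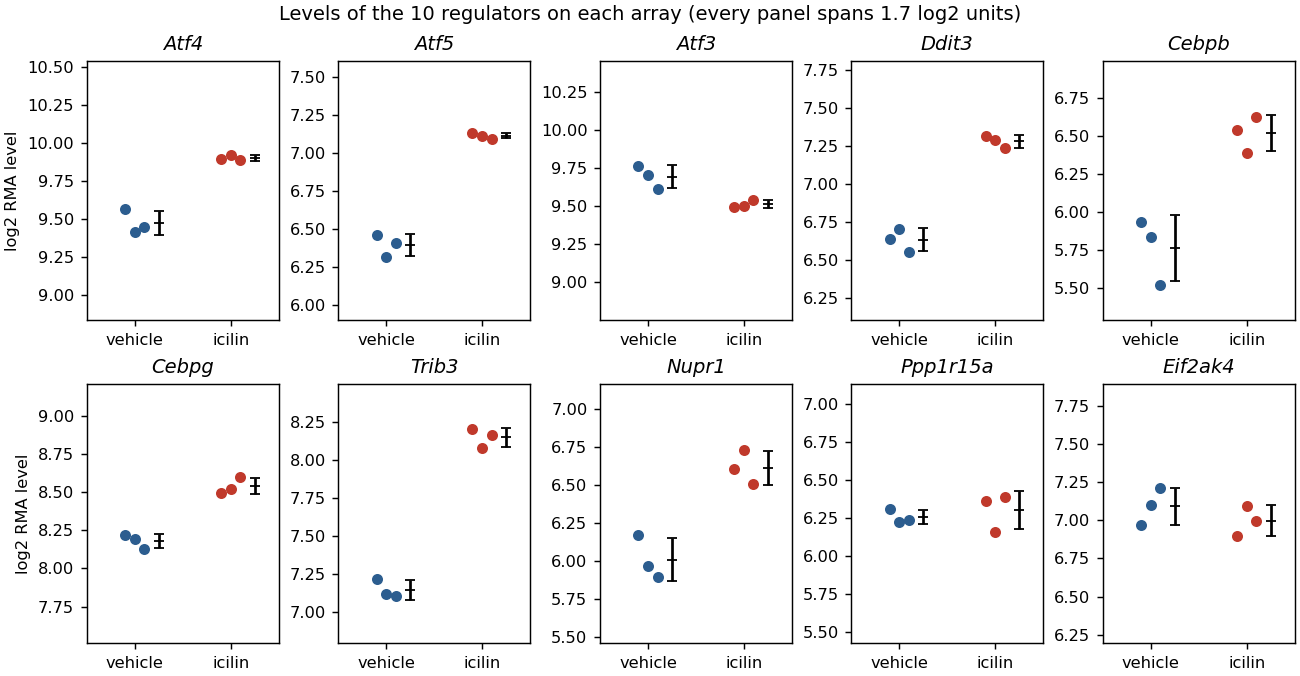
Log2 RMA level (vertical axis) of each of the 10 regulators on the 3 vehicle arrays (blue) and the 3 icilin arrays (red), with the group mean and SD in black beside the points. Every panel spans the same range. The groups are apart in 8 panels, with icilin lower in that of Atf3, and overlap in those of Ppp1r15a and Eif2ak4.

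The start regions of these genes differ in the elements they hold. RefSeq promoter windows (build GRCm38.p6, 250 bases before to 50 after the start) were found for all 10 genes, 12 windows in all. They were searched on both strands for the core of the C/EBP-ATF composite element (TGATGNAA), the cyclic AMP response element CRE (TGACGTCA), the endoplasmic reticulum stress element (ERSE) and the AP-1 site (TGANTCA). The composite core was in 3 of the 10 genes (Nupr1, Atf3 and Trib3), and in 4.51% of the 27025 genes with a window. The CRE was in Ppp1r15a alone (2.03% of all genes) and the AP-1 site in Ddit3 alone (8.97% of all genes). The ERSE was in none of the 10, and in 0.137% of all genes. The following stretches are shown because they hold those matches, in capitals, and are written 5′ to 3′ on the gene's strand:
Nupr1: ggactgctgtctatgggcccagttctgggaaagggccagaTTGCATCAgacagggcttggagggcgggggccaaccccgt
Atf3: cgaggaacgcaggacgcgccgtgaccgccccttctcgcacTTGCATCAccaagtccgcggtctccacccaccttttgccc
Trib3: attagctcaggtTTACATCAgccgggcg
Ppp1r15a: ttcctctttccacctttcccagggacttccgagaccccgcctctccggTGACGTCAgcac
Ddit3: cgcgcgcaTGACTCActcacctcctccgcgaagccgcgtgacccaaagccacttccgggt

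The stretches lie at chr7:126625541-126625620 (Nupr1), chr1:191183404-191183483 (Atf3), chr2:152344031-152344058 (Trib3), chr7:45526269-45526328 (Ppp1r15a), all on the minus strand, and chr10:127290543-127290602 (Ddit3, plus strand). All are before the start, except that of Trib3, which is within the first 30 bases of the transcript. The composite core of Nupr1 (chr7:126625573-126625580, minus strand) and that of Atf3 (chr1:191183436-191183443, minus strand) are the same 8 letters, TTGCATCA on the gene's strand, and both begin at position -110 from the start. Nupr1 rose, while Atf3 did not pass the test and had its icilin arrays below its vehicle arrays. In Trib3 the match (TTACATCA, chr2:152344039-152344046, minus strand) begins at position 15 of the transcript. In Ppp1r15a the CRE (chr7:45526273-45526280, minus strand) ends at position -5, and in Ddit3 the AP-1 letters (chr10:127290551-127290557, plus strand) begin at position -242. A match of letters is no evidence of a bound factor, and elements outside these windows were not searched.

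Atf4, the central factor of the pathway, was higher with icilin, by less than 1.5-fold. Its log2 level was 9.89, 9.92 and 9.89 on the icilin arrays and 9.57, 9.41 and 9.45 on the vehicle arrays. The groups did not overlap, with 0.33 between the lowest icilin and the highest vehicle array, and the icilin arrays lay closer together (SD 0.018) than the vehicle arrays (SD 0.080). The log2 fold change was 0.43 ± 0.067 (SE), a 1.34-fold difference with a limma adjusted p of 0.0215. It therefore passed the adjusted p but not the fold limit, and its 95% interval (0.27 to 0.59) reached the limit of 0.58. The limma adjusted p of Atf4 was 0.0347 to 0.0894 with single arrays left out. With the replicate number as a block it was 0.0943, close to the limit of 0.1. By mean level Atf4 was at brightness percentile 96.2 of all genes.

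Atf5, a bZIP factor whose mRNA also carries inhibitory upstream reading frames, rose more. The log2 level stood at 7.13, 7.11 and 7.09 with icilin and 6.46, 6.32 and 6.41 with vehicle. The icilin arrays lay closely together (SD 0.017), and the gap between the groups was 0.64. The log2 fold change was 0.72 ± 0.065 (limma adjusted p = 0.00277).

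Ddit3, which encodes CHOP, a C/EBP-like factor linked to cell death under prolonged stress, was also higher on every icilin array. Its log2 level was 7.32, 7.29 and 7.23 with icilin and 6.64, 6.71 and 6.56 with vehicle. The change was 0.65 ± 0.068 (limma adjusted p = 0.00456), with a gap of 0.53 between the groups.

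Atf3, a stress-induced repressor that is commonly grouped with Ddit3 as an ATF4 target, did not rise. The arrays gave log2 levels of 9.50, 9.50 and 9.54 with icilin and 9.77, 9.70 and 9.62 with vehicle. All icilin arrays lay below all vehicle arrays, but by only 0.073. The difference was -0.18 ± 0.067 with a limma adjusted p of 0.230, and its 95% interval ran from -0.34 to -0.02. The probe set of Atf3 was at brightness percentile 95.8.

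The C/EBP genes, whose products pair with ATF4, showed an increase in 1 member that passed both limits. Cebpb, encoding C/EBP beta, had log2 levels of 6.54, 6.39 and 6.63 with icilin and 5.94, 5.84 and 5.52 with vehicle. It had the widest spread of the 10 among the vehicle arrays (SD 0.22), vehicle replicate 3 being the lowest, and the gap between the groups was still 0.45. The log2 fold change was 0.76 ± 0.12 (limma adjusted p = 0.0234), and 0.63 without vehicle replicate 3.

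Cebpg, encoding C/EBP gamma, a partner without an activation domain of its own, changed less. The log2 level stood at 8.50, 8.52 and 8.60 with icilin and 8.22, 8.19 and 8.13 with vehicle. The groups did not overlap, and the difference was 0.36 ± 0.065 (limma adjusted p = 0.0324), which is 1.29-fold and below the fold limit. It no longer passed the adjusted p without icilin replicate 2 or 3 or without vehicle replicate 2 or 3 (adjusted p 0.110 to 0.116; difference 0.33 to 0.37). Other family members, named after their values were seen, did not pass: Cebpa stood at -0.08, Cebpd at -0.08 and Cebpe at 0.22, with limma adjusted p of 0.732, 0.918 and 0.477. These 3 were dim, at brightness percentiles 39.8, 31.1 and 44.5.

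Trib3 encodes a pseudokinase that binds ATF4 and CHOP and restrains them, and it showed the largest change of the 10. Its log2 level was 8.20, 8.08 and 8.17 with icilin and 7.22, 7.12 and 7.10 with vehicle. The lowest icilin array was 0.86 above the highest vehicle array, with an SD of 0.062 for icilin and 0.064 for vehicle. The log2 fold change was 1.00 ± 0.069 (limma adjusted p = 0.00105), the 17th largest rise (rank 17) among 22180 genes. Of its relatives, Trib2 rose and Trib1 did not pass. Trib2 had levels of 7.42, 7.46 and 7.44 with icilin and 6.45, 6.48 and 6.34 with vehicle, a change of 1.02 ± 0.066 (limma adjusted p = 0.000927). Trib1 had a difference of -0.10 ± 0.076 (limma adjusted p = 0.578), with overlapping groups and a 95% interval of -0.28 to 0.08. The intervals of Trib3 (0.84 to 1.17) and Trib2 (0.86 to 1.17) lay above it, though the difference between the genes was not tested.

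Nupr1, a small stress protein that acts with transcription factors on chromatin, was the called regulator closest to the fold limit. The arrays gave log2 levels of 6.60, 6.73 and 6.51 with icilin and 6.17, 5.97 and 5.89 with vehicle. The groups did not overlap (gap 0.34), and the change was 0.60 ± 0.097 (limma adjusted p = 0.0228). The fold fell under 1.5 without icilin replicate 2 (0.55), without vehicle replicate 2 (0.58) or without vehicle replicate 3 (0.55), so that 4 of the 10 regulators were called in each of those fits. Its relative Nupr1l had a difference of -0.10 ± 0.12 at a dim level (percentile 47.0; limma adjusted p = 0.719).

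**Figure D2:**
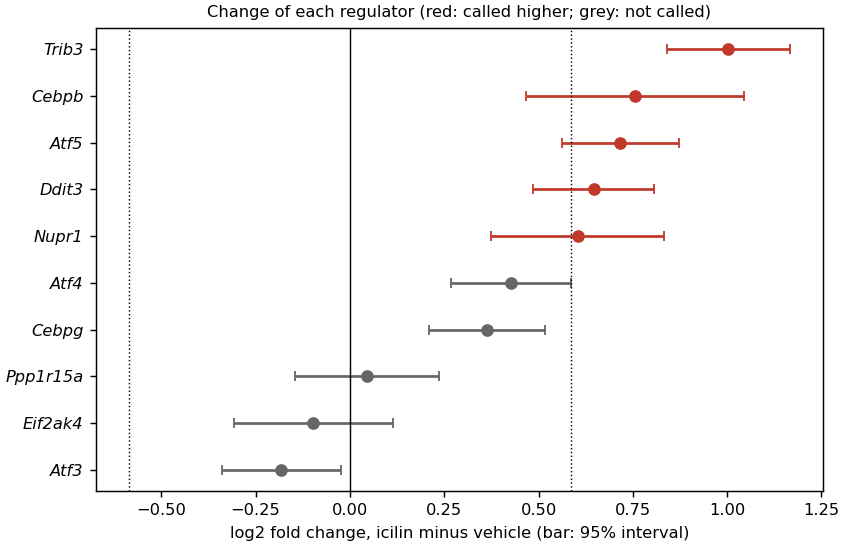
Log2 fold change of each regulator, icilin minus vehicle (horizontal axis), with its 95% interval from limma; the solid line marks 0 and the dotted lines 1.5-fold in either direction. Red points were called higher. The intervals of Trib3, Cebpb, Atf5, Ddit3, Nupr1, Atf4 and Cebpg lie above 0, that of Atf3 just below 0, and those of Ppp1r15a and Eif2ak4 span 0.

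Ppp1r15a, which encodes GADD34, the inducible subunit that directs protein phosphatase 1 to eIF2 and so ends the response, showed no difference beyond the spread. The log2 level stood at 6.36, 6.16 and 6.39 with icilin and 6.31, 6.22 and 6.24 with vehicle. The groups overlapped, and the difference was 0.04 ± 0.081 (limma adjusted p = 0.827) with a 95% interval of -0.15 to 0.24, which excludes a rise of 1.5-fold. Its constitutive counterpart Ppp1r15b had a difference of 0.08 ± 0.061 (limma adjusted p = 0.557).

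Eif2ak4, encoding the amino acid sensor GCN2, also had overlapping groups. Its log2 level was 6.89, 7.10 and 7.00 with icilin and 6.97, 7.10 and 7.21 with vehicle. The difference was -0.10 ± 0.090 (limma adjusted p = 0.646), with a 95% interval of -0.31 to 0.11. The other eIF2 kinases did not pass either: Eif2ak1 (HRI, the heme-regulated kinase) stood at 0.12 ± 0.064, Eif2ak2 (PKR, activated by double-stranded RNA) at 0.04 ± 0.069 and Eif2ak3 (PERK, the kinase of the endoplasmic reticulum) at -0.13 ± 0.069. Their limma adjusted p were 0.411, 0.829 and 0.400, and none of the 4 intervals reached 1.5-fold in either direction. These are levels of kinase RNA, which do not report kinase activity.

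Among the genes around the kinases that were measured, 0 passed both limits. Eif2s1 and Eif2s3x, which encode the alpha subunit that is phosphorylated and the gamma subunit, had no probe set with a single symbol and were not analysed here. Of 18 measured genes for the other kinases, eIF2 and eIF2B subunits and their helpers (20 were listed), limma and SAM called 0. The raw limma p was under 0.05 for 3 higher and 0 lower, beside 9.09% and 8.05% of all genes. Their median log2 fold change was 0.05. Adjusted p under 0.1 without the fold limit held for 2, both higher (2.27% of all genes were) and both encoding inhibitors of eIF2 kinases. Dnajc3 (p58IPK, an inhibitor of PERK and PKR) had levels of 9.61, 9.57 and 9.59 with icilin and 9.23, 9.15 and 9.13 with vehicle, a difference of 0.42 ± 0.062 (limma adjusted p = 0.0171). Impact, whose product competes for the activator GCN1 and so restrains GCN2, had levels of 7.40, 7.39 and 7.37 with icilin and 7.03, 6.94 and 7.01 with vehicle (0.39 ± 0.061, limma adjusted p = 0.0206). In both the groups did not overlap, and both differences were below 1.5-fold (1.34-fold and 1.31-fold). The GCN1 gene itself, Gcn1, stood at 0.03, and the mitochondrial stress relay genes Dele1 and Oma1 at 0.24 and 0.05 (limma adjusted p = 0.126 and 0.782).

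Both inhibitor genes were also among the 5 genes whose profile over the 6 arrays was most like that of Atf4. Likeness was the root mean square distance between log2 profiles, each centred on its own mean. The nearest was Nop58, a nucleolar protein gene, at 0.011, followed by Samhd1, a nucleotide triphosphohydrolase gene (0.027), Dnajc3 (0.029), Plcb4, a phospholipase C gene (0.031), and Impact (0.033), while the median over all genes was 0.24. All 5 had a difference of 0.39 to 0.43, as the measure requires of a near neighbour. For Trib3 the nearest was a gene with a predicted name, at 0.043, followed by Trib2 (0.063), the TNF receptor family gene Tnfrsf26 (0.072), Cth, an enzyme gene of cysteine synthesis (0.073), and another predicted gene (0.080). With 6 arrays in 2 groups, such likeness describes mainly the shared size of the group difference.

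Genes that ATF4 is known to switch on, listed apart from the 10 regulators, rose in part. Of 34 measured (38 were listed), 6 were called higher by limma, where 0.370% of all genes were called higher and 1.03% lower. Neither limma nor SAM called any lower (0), and a raw limma p under 0.05 was found for 25 higher and 2 lower, where 9.09% and 8.05% of all genes had one. Without the fold limit, the adjusted p was passed by 17 higher and 2 lower genes, beside 2.27% and 3.00% of all genes. The median log2 fold change was 0.27, and 29 of the 34 values were above 0. The 6 called genes serve cystine uptake (Slc7a11, 1.60 ± 0.11), mitochondrial folate metabolism (Aldh1l2, 1.47 ± 0.12), cationic amino acid uptake (Slc7a3, 1.16 ± 0.062), cysteine synthesis (Cth, 1.00 ± 0.073), glutathione breakdown (Chac1, 0.77 ± 0.087) and phosphoenolpyruvate synthesis in mitochondria (Pck2, 0.73 ± 0.071), with limma adjusted p from 0.000623 for Slc7a3 to 0.00594 for Chac1. In each of them the groups did not overlap.

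Slc7a11 had levels of 6.42, 6.31 and 6.42 with icilin and 4.94, 4.55 and 4.85 with vehicle, while its second, dim probe set differed by 0.06 ± 0.082. Pck2 had levels of 9.48, 9.54 and 9.58 with icilin and 8.85, 8.71 and 8.85 with vehicle. The classical target Asns, encoding asparagine synthetase, differed by 0.42 ± 0.058 (limma adjusted p = 0.0130), close to the 0.43 of Atf4; it was named after its value was seen. The 2 targets that passed the adjusted p in the other direction, Vldlr (-0.56 ± 0.076) and Ddit4 (-0.42 ± 0.065), were also named after their values were seen; their limma adjusted p were 0.0128 and 0.0207.

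**Figure D3:**
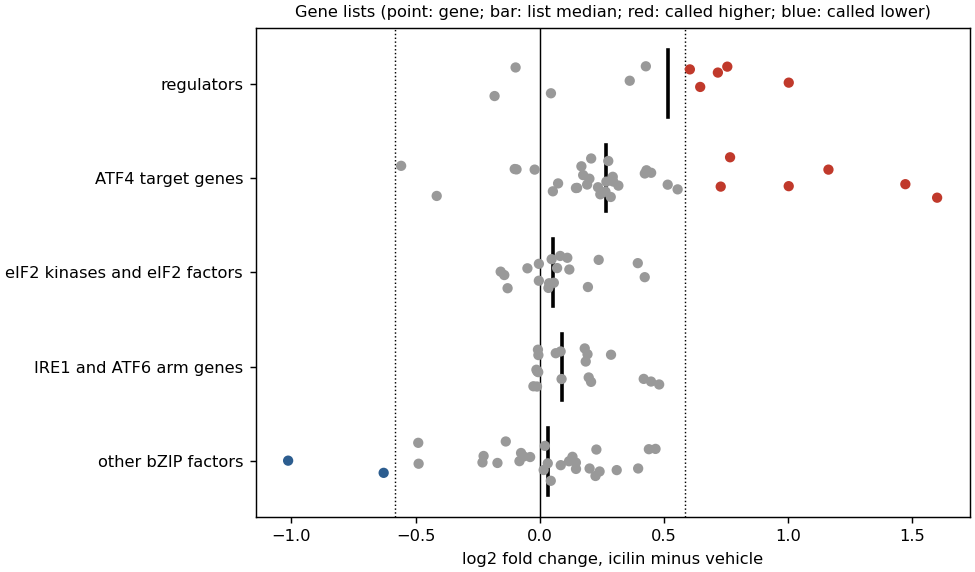
Log2 fold change, icilin minus vehicle, of every measured gene of 5 lists; thick bars mark list medians, red and blue points genes called higher and lower, and dotted lines 1.5-fold. Medians are 0.52 for the regulators, 0.27 for ATF4 target genes, 0.05 for eIF2 kinases and factors, 0.09 for genes of the IRE1 and ATF6 arms and 0.03 for other bZIP factors.

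The other arms of the unfolded protein response, run by the sensors IRE1 and ATF6, share Ddit3 with the PERK arm but act mainly on folding and degradation genes of the endoplasmic reticulum. Of 19 measured genes (20 were listed), 0 were called by limma or SAM, and their median change was 0.09. Raw limma p was under 0.05 for 8 higher and 0 lower genes, beside 9.09% and 8.05% of all genes. Without the fold limit, 4 higher and 0 lower genes passed the adjusted p, beside 2.27% and 3.00% of all genes. In 11 genes every icilin array lay above every vehicle array and in 0 below, beside 13.6% and 10.5% of all genes. The largest difference was that of Dnajb9 (0.48 ± 0.11, limma adjusted p = 0.0682). The smallest p belonged to Herpud1, a component of the degradation complex (0.45 ± 0.064, limma adjusted p = 0.0151), and Sel1l, an adaptor of that complex (0.42 ± 0.078, limma adjusted p = 0.0380). Herpud1 was also the 1 gene of this list with the composite core in its window, among the 16 that had a window. The ERSE was in 7 of these 16 genes, beside 0.137% of all genes with a window. Of the 7, Hspa5, the chaperone gene BiP, stood at 0.20 ± 0.059 (limma adjusted p = 0.155). The other 6 were Calr, Creld2, Derl3, Hsp90b1, Pdia6 and Syvn1, at -0.03 to 0.09. Outside this list, the window of Dnajc3 also held the ERSE, and Dnajc3 stood at 0.42 (limma adjusted p = 0.0171). Dnajc3 was counted with the eIF2 kinase genes, so it is not in the median of this list. Among the ATF4 targets, the composite core was in 9 of the 25 with a window, beside 4.51% of all genes with one. The differences of those 9 ran from -0.56 (Vldlr) to 1.60 (Slc7a11). The rest of the 34 measured targets had no window, among them the called genes Aldh1l2, Cth and Slc7a3. These values are given after they were seen, and the lists were not compared by a test.

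The remaining bZIP factors, which can pair with ATF and C/EBP proteins, moved in both directions. Of 29 measured (31 were listed), 2 fell, where 1.03% of all genes were called lower. By limma and by SAM 0 were called higher. A raw limma p under 0.05 was found for 7 higher and 6 lower genes, beside 9.09% and 8.05% of all genes, and the list median was 0.03. Fosl2, an AP-1 subunit gene, had levels of 8.37, 8.34 and 8.50 with icilin and 9.38, 9.40 and 9.47 with vehicle, a change of -1.01 ± 0.071 (limma adjusted p = 0.00109). Junb, another AP-1 subunit gene, had levels of 9.54, 9.37 and 9.44 with icilin and 10.0, 10.1 and 10.1 with vehicle (-0.63 ± 0.072, limma adjusted p = 0.00604). In both genes every icilin array lay below every vehicle array. Adjusted p under 0.1 without the fold limit was reached by 5 higher and 4 lower genes, beside 2.27% and 3.00% of all genes. The highest was Batf3, a partner of Jun proteins (0.47 ± 0.076, limma adjusted p = 0.0239). Besides Fosl2 and Junb, the lower genes were Crem (-0.49 ± 0.061, limma adjusted p = 0.00920) and Batf (-0.49 ± 0.058, limma adjusted p = 0.00737). Batf3, Crem and Batf were named after their values were seen.

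The changes of the regulators kept their direction with any 1 array left out. For the 7 regulators separated upward and for Atf3 this could not be otherwise, because their groups did not overlap. In Ppp1r15a and Eif2ak4 the groups overlapped, so a kept direction is no evidence of a change. The ranges therefore describe only how far the size of each difference moved. Trib3 ranged from 0.98 to 1.04, Atf5 from 0.68 to 0.75, Ddit3 from 0.61 to 0.68, Cebpb from 0.63 to 0.84, Nupr1 from 0.55 to 0.68 and Atf4 from 0.40 to 0.47. Atf3 stayed between -0.22 and -0.15, Cebpg between 0.33 and 0.38, Eif2ak4 between -0.16 and -0.04 and Ppp1r15a between 0.00 and 0.12.

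**Figure D4:**
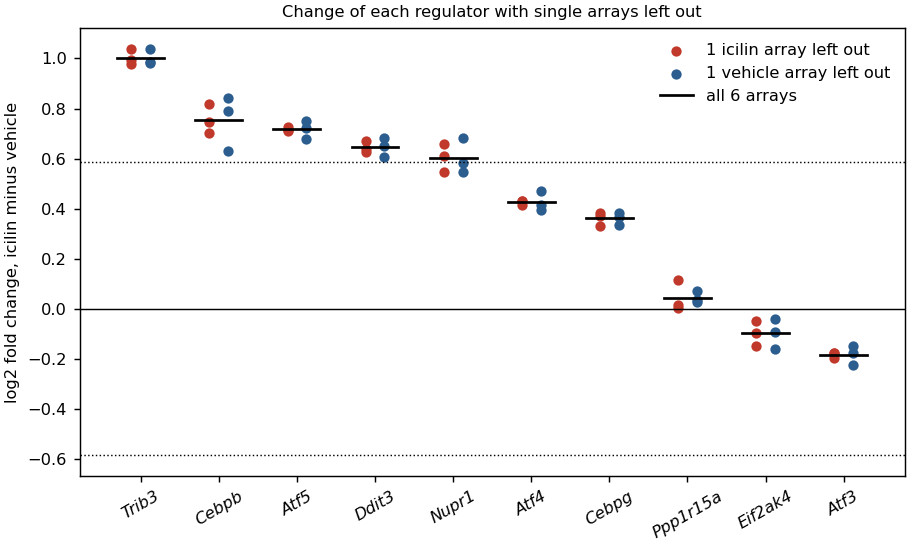
Log2 fold change (vertical axis) of each regulator from all 6 arrays (black bar) and with 1 icilin array (red) or 1 vehicle array (blue) left out; dotted lines mark 1.5-fold. Trib3, Cebpb, Atf5 and Ddit3 stay above the upper dotted line in all 6 fits and Nupr1 in 3 of them.

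The labelled cell type was checked against its markers. All 6 measured T cell genes (Cd3d, Cd3e, Cd3g, Cd4, Cd5 and Cd28) were bright, at percentiles 92.6 to 99.7, with 0 called by limma and SAM and 1 higher at a raw p under 0.05, and their summed linear level was 10854 to 11363 with icilin and 10859 to 11632 with vehicle. Markers of CD8 T and natural killer cells (6 measured, 162 to 200 with icilin and 152 to 168 with vehicle), myeloid cells (7 measured, 134 to 143 and 146 to 157) and red cells and platelets (3 measured, 40.3 to 45.1 and 45.6 to 49.6) had 0 called genes by limma and SAM, and at a raw p under 0.05 the counts were 1 higher and 2 lower, 1 higher and 2 lower, and 0 higher and 1 lower. Among 6 B cell markers, summed at 177 to 189 with icilin and 156 to 161 with vehicle, Ms4a1 rose (1.01 ± 0.097, limma adjusted p = 0.00339) and 5 did not pass. Among 6 dendritic cell markers, summed at 548 to 591 with icilin and 1161 to 1333 with vehicle, the class II gene H2-Ab1 fell (-1.22 ± 0.081, limma adjusted p = 0.000927) and 5 did not pass. Most of that sum is H2-Ab1: the other 5 markers summed to 73.8 to 78.8 with icilin and 77.9 to 84.3 with vehicle. The part of such cells in the changes of the regulators was not tested.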

How the data were processed

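Expression was measured on 6 arrays. The values are on a log2 scale: the authors summarised probe intensities by Robust Multi-Array Average (RMA), per the series design text, from 0.25 µg of total RNA per array (integrity number 8 or more). Versions and the genome build of the array annotation were not given in the sources used here. RMA makes array distributions alike (medians 4.24 to 4.30), so a shift shared by most of the genes cannot be seen. Of 41345 probe sets, 23521 had 1 gene symbol, and the brightest probe set was kept for each of 22180 genes.

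Icilin was compared with vehicle in R 4.3.3 with limma 3.58.1 (a linear model and eBayes without trend), two-sided, with Benjamini-Hochberg adjustment over all genes. Limma and SAM, rewritten for this work, were tested on simulated data. For 1 gene, the smallest p of an exact permutation test on 3 against 3 arrays is 0.1. The number of arrays limits precision: the median SE was 0.09.

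The design text does not tie replicate numbers to mice, so no block was used in the main fit. Same-numbered arrays did not deviate together (r over genes, which are not independent replicates, of -0.022 to -0.0051). For differently numbered arrays r was -0.022 to 0.036. As both groups drew on the same mice, the arrays may still be matched in a way the numbers do not show. The members, lists, tests and naming rule (all regulators, kinase, eIF2 and family genes; up to 6 called genes of other lists, or the 2 with the smallest p; the 5 nearest profiles of Atf4 and Trib3) were chosen with earlier results of these data known. A probe set's gene name came from the array annotation; promoters came from RefSeq and were searched with Python 3.11.15 and pandas 2.3.3.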

Additional observations from a re-analysis of the deposited data

How the results depend on the processing

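The calls of Trib3, Cebpb, Atf5 and Ddit3 held under all 13 alternatives that gave each gene a value, and that of Nupr1 under 10 of them. The call of Cebpb held narrowly. Over these limma fits the highest adjusted p was 0.0906 for Cebpb and 0.0968 for Nupr1, near the limit of 0.1. It was 0.0130 for Trib3, 0.0301 for Atf5 and 0.0354 for Ddit3. The count of regulators called higher was 5 with the replicate number as a block, with an intensity trend and robust variances, with median-centred or quantile-normalized arrays, with dim genes left out, with probe sets averaged, with SAM and at an adjusted p under 0.05. It was 4 to 5 with single arrays left out. Under the replicate block, 283 genes were called in place of 311. The limma adjusted p of Cebpg was then 0.134 in place of 0.0324, and that of Atf4 0.0943 in place of 0.0215. Neither gene is called in either fit, and the block changed no call of a regulator. With an intensity trend and robust variances the adjusted p of Atf3 was 0.0302, and with dim genes left out 0.0681, both at the same difference of -0.18; it then passes the adjusted p, though not the fold limit. With both probe sets averaged, Slc7a11 stood at 0.83. Without the fold limit the genes called were 504 higher and 666 lower over all genes, 17 higher and 2 lower among ATF4 targets, 5 higher and 4 lower among other bZIP factors, 4 higher among IRE1 and ATF6 arm genes and 2 higher among eIF2 kinases and factors, where more genes pass by construction. Single arrays left out gave 0 to 1 ATF4 targets called lower, the 1 without icilin replicate 3. Of 130 values of single regulators under alternatives, 127 kept their direction and their call, and 3, all of Nupr1, fell below the fold limit. Cebpg and Atf3 crossed the adjusted p limit in some of these fits without a change of call, and are counted among the 127. Many of the 130 values could not differ in direction or size. A block, an intensity trend, dim genes left out, probe sets averaged and SAM leave each regulator's difference unchanged by construction. In those fits only the adjusted p can move. With single arrays left out, the direction of a regulator whose groups did not overlap could not change either. RMA values compress differences of dim genes toward 0, among them Nupr1l, Cebpa, Cebpd and Cebpe and most markers of other cell types.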
